A study of Mus musculus with 95 samples.

Results

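The genes described here are 38 mouse genes that are commonly induced by type I interferon, chosen by gene symbol from among the 53465 entries of a count table of sorted bone marrow stem and progenitor cells. The rule names genes by symbol and applies no measured value, but the list was drawn up with earlier results of these data known. All 38 symbols were found in the table. RNA-seq was made from 3 populations that the labels call hematopoietic stem cells (HSC), HPC-1 and HPC-2, with 8, 8 and 7 libraries from untreated mice at steady state and 3 libraries of each population at each of 8 times after transplant (weeks 3, 4, 5 and 6, then weeks 8 and 10, then weeks 13 and 16). The mice were of the B6.SJL strain and the labels give an age of 8 to 12 weeks for all groups. In the transplant groups, recipients had been given 900 cGy of radiation, a lethal dose, and 8000 LSK cells, which are lineage-negative, cKIT+ and SCA-1+ bone marrow cells. For every population the labels give the same sort gate, CD48- and CD150+ within LSK, and they do not say that the libraries came from separate animals, so the p-values measure the spread between libraries only. For 1 library, HPC-2 week 3 replicate 1, the treatment label reads untreated while the title gives week 3. It was grouped by its title, and week 3 counts without it are given beside the results. Fitted week 3 values without it are not given. For another, replicate 7 of HPC-2 at steady state, the description joins a pair of numbers where all others have a single one.

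Type I interferons bind the receptor pair IFNAR1 and IFNAR2, and the kinases JAK1 and TYK2 then act on STAT2. STAT2 and IRF9 are parts of ISGF3, a complex that binds the interferon-stimulated response element (ISRE) in the promoters of its target genes. The targets include RNA sensors, enzymes that block viral RNA and protein synthesis, the ubiquitin-like modifier ISG15 with its enzymes, and the transcription factor IRF7, which amplifies interferon production. Stem cells of the marrow express part of this program without infection, and type I interferon is known to drive quiescent HSC into cycle.

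The promoters are shown first because the response element that ISGF3 binds can be read in them. An ISRE core was searched as GAAANNGAAA on both strands, overlaps allowed, in the RefSeq promoters of build GRCm38.p6, from 250 bases before to 50 bases after each gene's start. Of the 38 genes, 28 had an entry and 12 of these (42.9%) held a match, against 1079 of 27025 genes (3.99%) in the whole table. The 12 were Ifih1, Ddx58, Isg15, Oas3, Oas1a, Bst2, Stat2, Slfn5, Rsad2, Eif2ak2, Ifit3 and Ifit1. Mx1, Mx2, Oas2, Usp18, Dhx58, Ifi27, Parp9, Parp14, Rtp4 and Zbp1 had no entry. Below are the 160 bases before the start of 5 genes with more than 1 match and of Slfn2, which had none; the first 5 show how the element is repeated, and Bst2, Oas1a and Slfn2 recur in the expression results. Each is written 5′ to 3′ along the gene's strand, with capitals for GAAANNGAAA or its reverse complement TTTCNNTTTC.
Bst2, chr8:71537473-71537632, minus strand: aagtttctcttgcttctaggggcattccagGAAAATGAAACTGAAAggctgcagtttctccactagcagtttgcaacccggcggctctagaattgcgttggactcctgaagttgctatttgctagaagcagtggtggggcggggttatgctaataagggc
Oas1a, chr5:120907526-120907685, minus strand: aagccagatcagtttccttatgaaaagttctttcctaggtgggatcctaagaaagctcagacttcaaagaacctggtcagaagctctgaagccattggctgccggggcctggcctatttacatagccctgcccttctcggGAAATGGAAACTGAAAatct
Isg15, chr4:156200819-156200978, minus strand: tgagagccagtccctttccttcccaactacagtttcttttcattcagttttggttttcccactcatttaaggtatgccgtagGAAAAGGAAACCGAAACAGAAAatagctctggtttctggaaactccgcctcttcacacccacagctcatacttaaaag
Ifit1, chr19:34640729-34640888, plus strand: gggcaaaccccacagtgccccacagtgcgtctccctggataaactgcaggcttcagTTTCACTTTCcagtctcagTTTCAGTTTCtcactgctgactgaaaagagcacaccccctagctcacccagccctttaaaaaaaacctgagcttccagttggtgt
Ifit3, chr19:34583369-34583528, plus strand: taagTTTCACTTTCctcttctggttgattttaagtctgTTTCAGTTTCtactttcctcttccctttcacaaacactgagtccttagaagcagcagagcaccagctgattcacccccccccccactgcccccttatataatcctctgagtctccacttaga
Slfn2, chr11:83064952-83065111, plus strand: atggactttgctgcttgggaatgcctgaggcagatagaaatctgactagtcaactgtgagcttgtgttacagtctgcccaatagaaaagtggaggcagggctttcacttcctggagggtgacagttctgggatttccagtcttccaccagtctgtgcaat

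In Isg15, which encodes the ubiquitin-like modifier, 3 matches overlapped, beginning 78, 72 and 66 bases before the start. Pairs of overlapping matches began 20 and 14 bases before the start of Oas1a, an RNA-activated oligoadenylate synthetase, and 130 and 124 bases before that of Bst2, the membrane protein tetherin. The pairs in Ifit1 (104 and 85 bases) and Ifit3 (156 and 122 bases), which encode RNA-binding proteins, lay on the other strand and did not overlap. A match describes the letters and is not a measured binding site.

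The 95 libraries held between 3551908 and 8492759 counts assigned to genes, with a median of 5628592, and between 3827 and 15697 genes with at least 1 count. In 12 libraries, 5 of HSC and 7 of HPC-2, fewer than 10000 genes were detected, and 7 of these were at steady state. Another feature concerned 12 libraries that formed 6 pairs with counts closer to one another than any other pair, at a chi-square of 1.25 to 4.50 per degree of freedom where the next pair had 15.1 and the median pair 119. The libraries of each pair carry different labels, for instance HPC-1 steady state replicate 7 and HPC-2 steady state replicate 7. Where a call was lost or a week 3 count changed without the low or near-identical libraries, that value is given beside it. Members gained without them are given beside the result or as counts at the end. The numbers in the sample descriptions run in 8 blocks of 12, and each block holds the 9 libraries of 1 week with 1 steady state library of each population (none of HPC-2 in the block of week 4). The labels do not say what the numbers stand for, and week and block cannot be told apart among the libraries after transplant. CPM is a gene's count scaled to the counts assigned to genes in its library. By their markers, HSC libraries had the highest median sum of HSC genes (Hlf, Mecom, Procr, Fgd5 and Slamf1) and HPC-1 libraries the highest of progenitor genes (Cd48, Flt3, Dntt and Plac8): the HSC sum had a median of 542 CPM in HSC, 97.7 in HPC-1 and 51.7 in HPC-2 at steady state, and the progenitor sum 186, 5108 and 1581. At steady state the median of Cd48 itself was 2.72, 1095 and 360.4 CPM in HSC, HPC-1 and HPC-2, although the labels give the CD48- gate for all 3.

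Most of the 38 genes were weakly to moderately expressed, and a few were abundant in every population. A mean of at least 100 CPM over the 95 libraries was found for 5 genes, Ube2l6, Ifi27, Rtp4, Ifi35 and Xaf1. Another 25 lay between 10 and 100 CPM, and 8 lay below 10 CPM: Oas2, Oas3, Ifit3, Slfn5, Mx2, Isg15, Oasl1 and Mx1. Ube2l6, the E2 enzyme that conjugates ISG15, averaged 388 CPM and was the only member with a count in all 95 libraries. Mx1, a gene of the dynamin-like GTPase family, had a count in 30 and Mx2, annotated as a polymorphic pseudogene, in 33. Divided by the summed exon length, the order at the top changed: Ifi27 had 209 CPM per kilobase, Ube2l6 194, Ifi35 86.7, Rtp4 82.8 and Bst2 68.1. Exons of another annotated gene overlapped those of 14 members, among them Rtp4, Ifi35, Irf9, Irf7, Usp18, Irf1, Dtx3l and Parp9, and since the strand setting of the counting is not given in the sources used here, reads of those pairs may not be separated. In GRCm38 (GENCODE annotation), the members called in a comparison below span chr2:84798828-84810335 (Ube2l6, plus strand), chr3:151730922-151749960 (Ifi44, minus), chr11:83065112-83070678 (Slfn2, plus), chr12:103434211-103440239 (Ifi27, plus), chr16:23520291-23614222 (Rtp4, plus), chr16:97447035-97462907 (Mx1, minus) and chr19:34583531-34588731 (Ifit3, plus). Each is a protein-coding gene, and the table holds 1 count per gene and library, so coding exons and UTRs are not told apart.

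**Figure D1:**
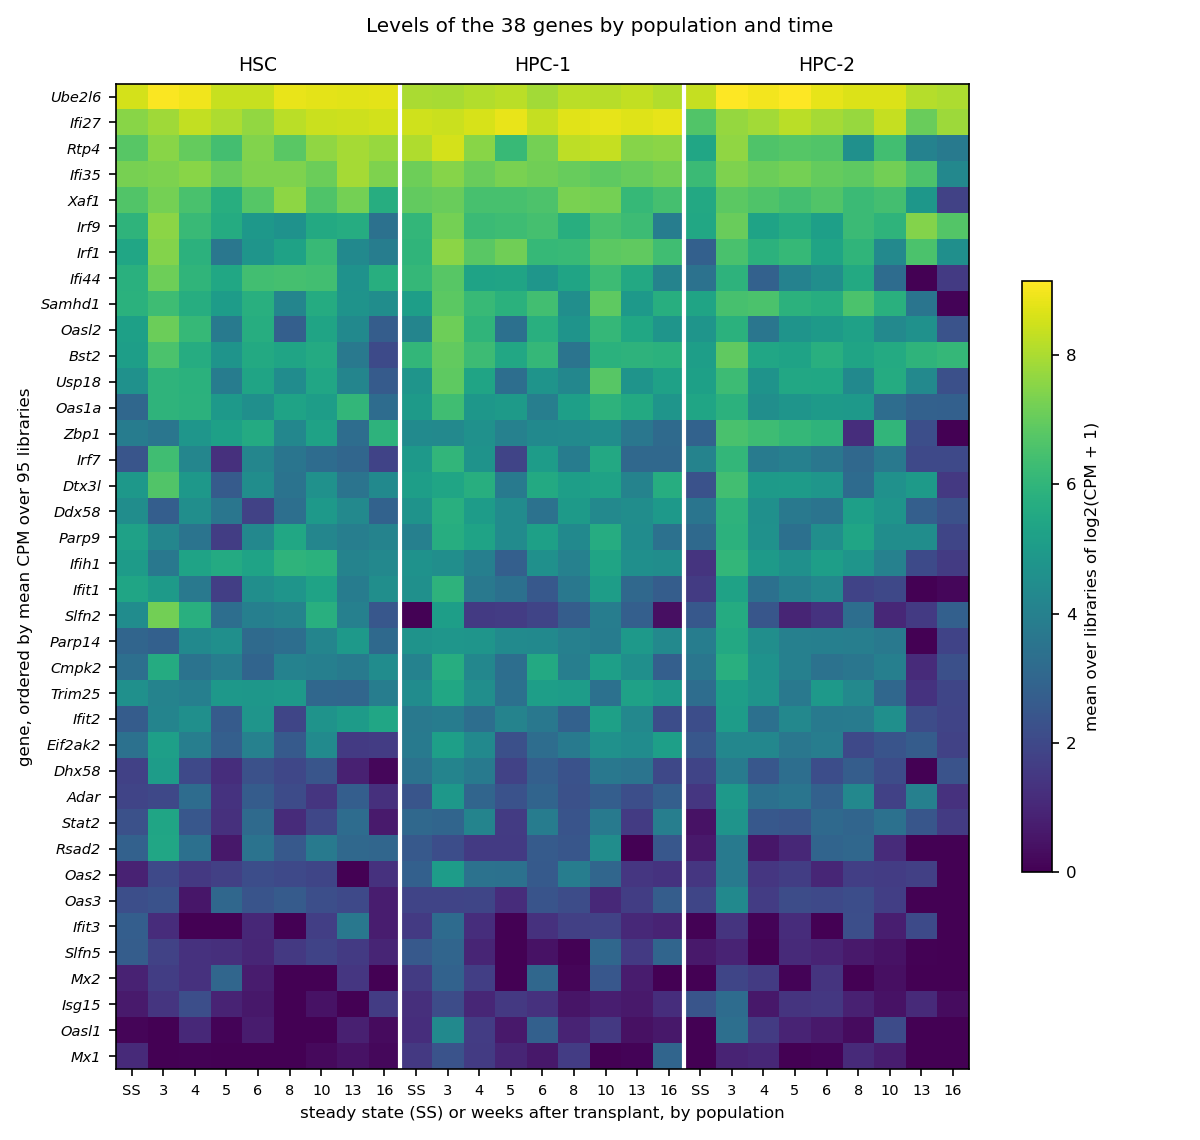
Mean over libraries of log2(CPM + 1) for each of the 38 genes (rows, ordered by mean CPM over 95 libraries) at steady state (SS) and at 8 times after transplant in HSC, HPC-1 and HPC-2 (columns). Ube2l6 and Ifi27 stay bright across all columns, and the 8 genes below 10 CPM form the dark rows.

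Levels of the 6 most abundant members differed in order between the populations. Ube2l6 averaged 443 ± 149 CPM in HSC (SD, n = 32), 285 ± 105 in HPC-1 (n = 32) and 437 ± 204 in HPC-2 (n = 31), so that HSC and HPC-2 could not be ordered. Ifi27, a small mitochondrial and nuclear-envelope protein gene, was highest in HPC-1 at 399 ± 81.9 CPM, against 275 ± 90.5 in HSC and 245 ± 126 in HPC-2. Rtp4, a chaperone-like gene that is strongly interferon-inducible, had the same order, with 247 ± 110.3 CPM in HPC-1, 179 ± 83.5 in HSC and 102 ± 89.0 in HPC-2. For Ifi35, Xaf1 and Irf9 the population means lay within 1 SD of each other, at 172, 144 and 132 CPM, at 125, 117 and 86.5 CPM, and at 79.8, 87.1 and 108 CPM in HSC, HPC-1 and HPC-2.

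After transplant, HSC differed from HPC-1 in Ube2l6, which was higher in HSC, and in Mx1, which was lower. The comparison averaged the 3 periods after transplant (weeks 3-4, 5-8 and 10-16) in an edgeR quasi-likelihood fit over all 95 libraries, with Benjamini-Hochberg adjustment over 14717 genes, and a gene was called at an adjusted p under 0.05. Of all genes tested, 8.89% were called, and 2 of the 38 members were. Without the low libraries Irf1, Slfn2 and Ifi27 were called too, where 13.1% of all genes were. The lowest, median and highest Ube2l6 levels were 241, 448 and 654 CPM in the 24 HSC libraries and 176, 252 and 689 CPM in the 24 HPC-1 libraries. The ranges overlapped, although the HPC-1 median lay near the lowest HSC value, and the highest HPC-1 value came from week 5 replicate 1, where the next HPC-1 library of that period had 369 CPM. The fitted difference in Ube2l6 was 0.66 ± 0.19 on the log2 scale (SE), with an adjusted p of 0.0113, and it was called under each of 10 alternatives and after leaving out any of the 48 libraries.

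Mx1 had counts in 5 of 24 HSC libraries after transplant, none above 1.61 CPM, and in 10 of 24 HPC-1 libraries, up to 31.1 CPM. In most libraries of both populations it was therefore at 0. Pooled over libraries there were 593 counts in HPC-1 and 16 in HSC, a ratio of CPM of 45.5 with a 95% interval of 27.8 to 80.1 that covers counting error only. The fitted log2 difference, HSC minus HPC-1, was -6.21 ± 1.29 with an adjusted p of 0.000314; its size depends on how counts of 0 are treated. It kept its call without any of the 48 libraries but not when each week was reduced to 1 mean. In simulated counts for this comparison, 25 genes without a change were called, above the nominal rate. In bulk libraries, fewer expressing cells and less RNA per cell cannot be told apart. The median log2 difference of the 38 members was -0.24, against -0.08 over all genes tested, and 13 of the 38 were positive.

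At steady state the same contrast called 2.07% of all genes and 1 member, Slfn2, a gene of the Schlafen family with a known role in keeping lymphocytes quiescent. Slfn2 was at 0 in 7 of 8 HPC-1 libraries and at 0.22 CPM, 1 count, in the other. The 8 HSC libraries held 31.5, 71.8, 0.42, 229, 156, 16.8, 23.6 and 0 CPM. Thus 7 of the 8 HSC libraries lay above all HPC-1 libraries, and replicate 8 of HSC, at 0, lay among them. The ratio of pooled CPM was 2571, with a counting interval of 461 to 101600. Its fitted log2 difference was 10.32 ± 2.19, with an adjusted p of 0.00321, and the call was kept under 10 alternatives and after leaving out each of the 16 libraries in turn. Over the 38 members the median difference was 0.21, against 0.003 over all genes, with 22 positive. Ifi27 was called as well without the low libraries, where 2.2% of all genes were.

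HSC and HPC-2 differed after transplant in Ifi44, a cytoplasmic antiviral GTP-binding protein gene that was higher in HSC, and again in Mx1. The share of all genes called was 7.06%, and 2 of 38 members were called. Slfn5 and Slfn2 joined them without the low libraries, where 10.6% of all genes were called. Ifi44 had a lowest, median and highest level of 1.95, 84.0 and 179 CPM in HSC and of 0, 19.1 and 86.9 CPM in HPC-2, where 17 of 24 libraries had a count. The ranges overlapped, and the HSC median lay near the top of HPC-2. The log2 difference was 1.92 ± 0.62, with an adjusted p of 0.0388, lost under 2 of 10 alternatives and after leaving out any of 6 single libraries of 48. For Mx1 the difference was -3.91 ± 1.08 (adjusted p 0.0129), from 133 pooled counts in 5 HPC-2 libraries and 16 in HSC, a ratio of 8.42 (5.00 to 15.2). This call was lost under 5 of 10 alternatives, with an adjusted p of 0.533 by voom, 0.714 with the replicate block, 0.0562 with the block on description numbers, 1 with 1 mean per week and 0.15 without the near-identical pairs. Without HPC-2 week 8 replicate 2, a library of such a pair, the adjusted p was 0.168, and without week 10 replicate 2 it was 1. The median difference over the members was 0.20, against 0.02 over all genes.

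At steady state, 8.36% of all genes and 1 member were called between HSC and HPC-2. That member was Ifit3, an RNA-binding antiviral protein gene. Its HSC libraries held 67.3, 0, 0, 3.84, 2.96, 31.8, 0 and 86.3 CPM, and 6 of 7 HPC-2 libraries were at 0, with 0.37 CPM, 2 counts, in the other. The 3 HSC libraries at 0 overlapped the HPC-2 group, and the other 5 lay above all of it. The pooled ratio was 564 (156 to 4661) and the fitted log2 difference 8.58 ± 2.53, with an adjusted p of 0.0299, lost under 5 of 10 alternatives and without any of 3 single libraries. The result depended on libraries in doubt: without the 12 low libraries no member was called, and without the near-identical pairs 7 were (Ifih1, Stat2, Slfn5, Rsad2, Rtp4, Mx1 and Ifit3), while the share called over all genes moved to 0.178% and 19.7%. Without HPC-2 steady state replicate 7 alone, the library with the joined description numbers, 6 members were called. The share over all genes in that fit is not given here.

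HPC-1 and HPC-2 differed after transplant in 3 abundant members. Rtp4 and Ifi27 were higher in HPC-1 and Ube2l6 was higher in HPC-2, where 7.7% of all genes tested were called. Rtp4 ran from 13.0 over a median of 217 to 490.3 CPM in HPC-1 and from 0 over 80.6 to 351 CPM in HPC-2. The groups overlapped through most of their range, and the log2 difference was 1.29 ± 0.42 (adjusted p 0.037). Ifi27 ran from 282 over 409 to 544 CPM in HPC-1 and from 83.1 over 273 to 519 CPM in HPC-2, a difference of 0.74 ± 0.24 (adjusted p 0.0457). Ube2l6 ran from 184 over 430.5 to 892 CPM in HPC-2, against the HPC-1 values above, a difference, HPC-1 minus HPC-2, of -0.57 ± 0.19 (adjusted p 0.0411). Each of the 3 calls was lost under 4 of 10 alternatives, and after leaving out single libraries in 10 of 48 cases for Rtp4, 18 for Ube2l6 and 28 for Ifi27. Zbp1 and Irf1 were called in addition without the low libraries (10.9% of all genes), and Mx1 without the near-identical pairs (6.36%). A total of 30 of the 38 members had a positive difference, HPC-1 minus HPC-2, where 54.5% of all genes did, and the median was 0.52 against 0.06.

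In steady state marrow, the same pair of populations gave calls in 0.571% of all genes, with Slfn2 as the only member. HPC-2 libraries held 0, 17.6, 0, 80.4, 0, 130.3 and 0 CPM of Slfn2, so 3 of 7 lay above the HPC-1 libraries and 4 were at 0 with them. The log2 difference, HPC-1 minus HPC-2, was -8.98 ± 2.11 (adjusted p 0.0336), and the pooled ratio was 1375 in favour of HPC-2 (246 to 54330). It was lost under 4 of 10 alternatives and without any of 4 single libraries of 15. No member was called without the low libraries, and 9 were without the near-identical pairs (Ifih1, Oasl1, Stat2, Slfn5, Slfn2, Ifi27, Rtp4, Mx1 and Mx2), where 18.8% of all genes were. Leaving out HPC-2 steady state replicate 7 alone gave 7 members, in a fit whose share over all genes is not given here.

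**Figure D2:**
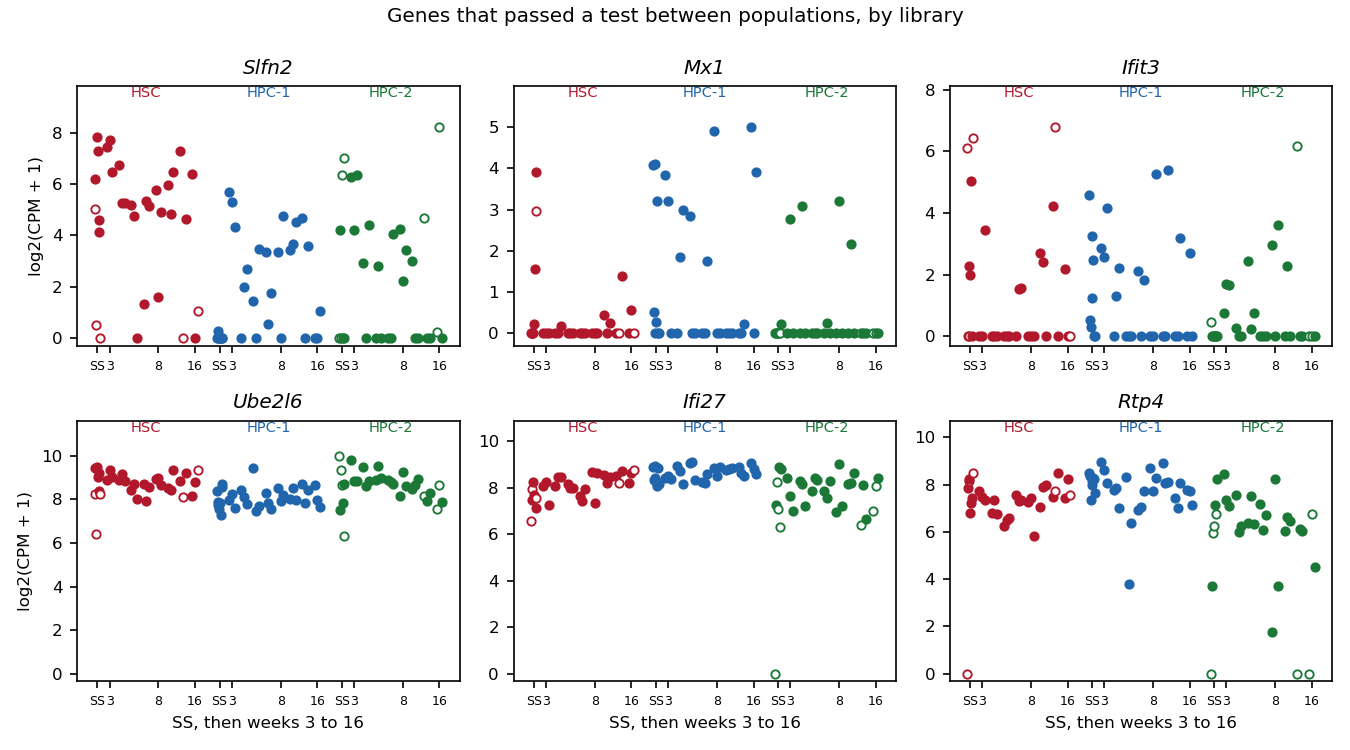
log2(CPM + 1) in every library for Slfn2, Mx1, Ifit3, Ube2l6, Ifi27 and Rtp4, by population and time (SS, steady state, then weeks 3 to 16); open circles are libraries with fewer than 10000 detected genes. Slfn2 lies at or near 0 in all 8 HPC-1 steady state libraries, Mx1 and Ifit3 are at 0 in most libraries, and Ube2l6 in HPC-1 lies mostly below the other 2 populations.

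Against steady state, the periods after transplant moved almost no member past the test. In HSC the shares of all genes called were 0.0558% at weeks 3-4, 0.0239% at weeks 5-8 and 0% at weeks 10-16 (12541 genes, 36 members tested), and no member was called by edgeR. At an unadjusted p under 0.05 there were 1, 3 and 1 members, where 7.85%, 5.5% and 3.29% of all genes passed. DESeq2 called 0 members in each period, and limma voom called 2, 0 and 0. The member with the smallest p at weeks 10-16 was Ifi27, at 193 ± 63.8 CPM at steady state (n = 8), 281 ± 73.3 at weeks 3-4 (n = 6), 263 ± 87.1 at weeks 5-8 (n = 9) and 356 ± 52.9 at weeks 10-16 (n = 9). Of the 9 libraries of the last period, 3 lay below and 6 above the highest steady state library, at 304 CPM, and the log2 difference was 0.95 ± 0.24 with a p of 0.000392 that became 0.683 after adjustment. Ifit3 at weeks 5-8 had a difference of -5.58 and an adjusted p of 0.498. Between weeks 10-16 and weeks 3-4 of HSC, 0.144% of genes and no member were called.

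HPC-1 had 1 called member, Slfn2 at weeks 3-4, where 0.0404% of 12364 genes were called. Its 3 week 3 libraries held 51.1, 38.5 and 19.1 CPM and its 3 week 4 libraries 0, 3.00 and 5.53 CPM. Of these 6, all but the one at 0 lay above every steady state library. The pooled ratio to steady state was 763 (136 to 30170), and the fitted log2 difference was 8.44 ± 1.69 with an adjusted p of 0.0473, which was lost under 6 of the 9 alternatives that gave an adjusted p, among them the fit without near-identical libraries (0.129), and after leaving out 12 of 14 single libraries. HPC-1 had no low library, so the fit without low libraries, counted among the 9, was the main fit again. DESeq2 gave Slfn2 no adjusted p and so made no call. At weeks 5-8 and 10-16 no gene was called in HPC-1 (0% each). Slfn2 there had differences of 6.92 (adjusted p 0.31) and 7.33 (adjusted p 0.179), DESeq2 called 2 and 1 members, and voom none. Slfn5, another Schlafen gene, had 6.49 ± 4.76 CPM at steady state (n = 8) and 0.15 ± 0.27 CPM at weeks 5-8 (n = 9), a difference of -5.30 with an adjusted p of 0.31.

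In HPC-2 none of 11885 genes was called in any of the 3 periods or between weeks 10-16 and 3-4 (0% each), so no member was, by edgeR, DESeq2 or voom. At an unadjusted p under 0.05, 2, 3 and 6 of the 35 members tested passed against steady state, where 5.76%, 7.23% and 7.08% of all genes did. Oasl1, an oligoadenylate synthetase-like gene, was at 0 in all 7 steady state libraries and had counts in 6 of 6 libraries at weeks 3-4, at 5.92 ± 4.76 CPM. Its fitted difference was 8.28, with an adjusted p of 0.152.

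The change after transplant differed between HSC and HPC-2 for 2 weakly expressed members. The shares of all genes with a called difference were 3%, 2.51% and 3.11% at weeks 3-4, 5-8 and 10-16. Mx1 had differences, HSC minus HPC-2, of -11.83 ± 3.27 at weeks 3-4 (adjusted p 0.0305) and -11.77 ± 2.90 at weeks 5-8 (adjusted p 0.0165). Behind these stand means of 2.88, 0.02 and 0 CPM in HSC at steady state, weeks 3-4 and weeks 5-8, and of 0.02, 2.23 and 0.94 CPM in HPC-2. Ifit3 had -10.96 ± 3.00 at weeks 5-8 (adjusted p 0.0278), from 24.0 and 0.42 CPM in HSC and 0.05 and 2.59 CPM in HPC-2. All 3 rest on libraries at or near 0, and each was lost under 5 or 6 of 10 alternatives. Without the low libraries the adjusted p-values were 0.227 and 0.287 for Mx1 and 0.309 for Ifit3, and without the near-identical pairs that of the second Mx1 difference was 0.0625. Without HPC-2 week 8 replicate 2 the second Mx1 difference had an adjusted p of 0.184. Ifih1 and Stat2 were called in all 3 periods without the near-identical pairs, where 11%, 7.14% and 6.16% of all genes were. Between HSC and HPC-1 no member's change differed (0%, 0.0136% and 0% of all genes). At an unadjusted p under 0.05 there were 2, 3 and 1 members, where 5.61%, 7.12% and 6.83% of all genes passed. DESeq2 called 1, 2 and 1 members and voom 1, 1 and 0.

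Week 3, the first time after transplant, had a higher level than the later weeks for most of the set. With all libraries, edgeR called no single member in the contrast of week 3 with the later weeks. This contrast was added after the values had been seen. The summed CPM of the 38 members in the 3 week 3 libraries was 3144, 3188 and 3239 in HSC, 2738, 3004 and 3468 in HPC-1, and 2887, 2901 and 3276 in HPC-2. The 21 later libraries ran from 1260 over a median of 2005 to 2789 in HSC, from 1523 over 2035 to 2990 in HPC-1, and from 619.7 over 1665 to 2225 in HPC-2. No later library of HSC or HPC-2 reached the lowest week 3 library of its population, 2 did in HPC-1, and 1 steady state library did in each population. The sum is dominated by the abundant members, so the mean of log2(CPM + 1) over the 38 genes was also taken. It averaged 4.80, 5.31 and 5.27 at week 3 in HSC, HPC-1 and HPC-2, and 3.84, 4.14 and 3.46 over the later weeks. On this measure HSC overlapped: the lowest week 3 library, at 4.36, was reached by 4 of 21 later and 3 of 8 steady state libraries. In HPC-1 and HPC-2 no later library reached the lowest week 3 library, and 1 and 0 steady state libraries did.

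The steady state libraries numbered in the same block as week 3 were replicate 1 of each population. Their members summed to 2005 CPM in HSC, 3319 in HPC-1 and 10740 in HPC-2, and their mean log2 levels were 2.75, 5.38 and 4.07. The HPC-1 library thus lay within the week 3 range of HPC-1 on both measures, and it and the HPC-2 library were the steady state libraries that reached week 3 in their populations by the sum. Against these single libraries, 29, 19 and 22 of 38 members had a higher mean at week 3, where 59.0%, 54.8% and 83.9% of all genes did. Against all steady state libraries the counts were 29, 33 and 26, with 46.8%, 54.4% and 59.7% of all genes. Without the low libraries they were 24, 33 and 35 (44.7%, 54.4% and 57.8% of all genes). Without the near-identical pairs they were 26, 33 and 26 (47.9%, 54.4% and 63.5%). Without HPC-2 week 3 replicate 1, HPC-2 had 25 (58.0%). The part of the block in the week 3 values cannot be told apart from that of the week.

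**Figure D3:**
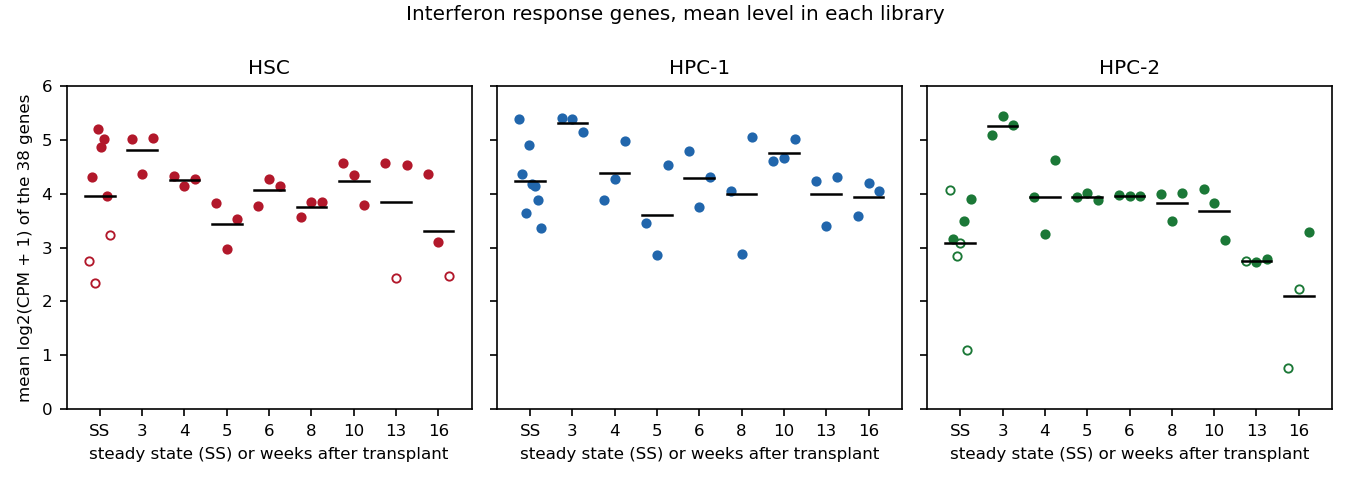
Mean log2(CPM + 1) of the 38 genes in each library (points) by population, at steady state (SS) and at 8 times after transplant; open circles are libraries with fewer than 10000 detected genes. Week 3 averages 4.80, 5.31 and 5.27 in HSC, HPC-1 and HPC-2, and the steady state libraries spread over most of the axis in HSC and HPC-2.

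Gene by gene, 28, 32 and 36 of the 38 members had a higher mean CPM at week 3 than over weeks 4-16 in HSC, HPC-1 and HPC-2. Over all genes that reached a mean of 1 CPM, the shares were 50.3%, 49.4% and 51.6%. In all 3 populations at once, 25 of 38 members did, where 24.8% of all genes did. Without the low libraries 26 members did so (26.5% of all genes), and without the near-identical pairs 23 (23.65%). The counts by population were 30, 32 and 37 without the low libraries (50.1%, 49.4% and 52.7% of all genes). They were 28, 31 and 37 without the near-identical pairs (50.3%, 49.6% and 52.0%). Without HPC-2 week 3 replicate 1, 35 members were higher in HPC-2 (53.5% of all genes) and 24 in all 3 populations (28.6%). The populations share no library, but the members were counted together with no test of the set.

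In the fits, the median log2 difference, week 3 minus weeks 4-16, was 0.72 for the members and -0.24 for all genes in HSC, 0.71 and -0.12 in HPC-1, and 1.21 and 0.01 in HPC-2. The shares of all genes called were 0.0352%, 0% and 0%, and edgeR and DESeq2 called no member. Without the low libraries, edgeR called 4.99% of all genes and 1 member, Stat2, in HSC. Voom with sample weights called 6, 1 and 7 members, and its shares over all genes are not given here. At an unadjusted p under 0.05, 4, 5 and 0 members were higher and none lower. In either direction, 15.2%, 7.97% and 0.99% of all genes passed. In HSC the lack of lower members says little, because the contrast seldom found falls in simulated counts. It was not simulated for HPC-1 and HPC-2. In simulated counts for HSC, an adjusted p under 0.05 was reached by 3 of 47 genes with a true log2 change of -4 and 0 of 49 at -2. For rises it was reached by 28 of 50 at 4 and 5 of 48 at 2. Positive differences numbered 26, 30 and 36 of 38, against 43.4%, 44.4% and 50.5% of all genes, and 29, 32 and 36 when the libraries were scaled by the RLE method in place of TMM. Without the low libraries they numbered 28 (of 37 tested), 30 and 37, and without the near-identical pairs 26, 29 and 37. Against steady state the medians were 0.33, 0.68 and 0.71, where all genes had -0.25, -0.08 and 0.27, and 26, 30 and 27 members were positive. Without the low libraries the HSC and HPC-2 medians were 0.295 and 1.38, where all genes had -0.29 and 0.159. Positive there were 24 of 37 members in HSC and 35 of 38 in HPC-2. Without the near-identical pairs, 24, 29 and 27 members were positive. With all libraries, the shares called against steady state were 0%, 0.0219% and 0%, and Slfn2 in HPC-1 was the only member, at 9.32 ± 1.71 with an adjusted p of 0.0259. This call was lost under 2 of the 7 alternatives that gave an adjusted p and without any of 7 single libraries of 11, while DESeq2 again gave none for Slfn2. The 7 include the fit without low libraries, which in HPC-1 was the main fit again.

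**Figure D4:**
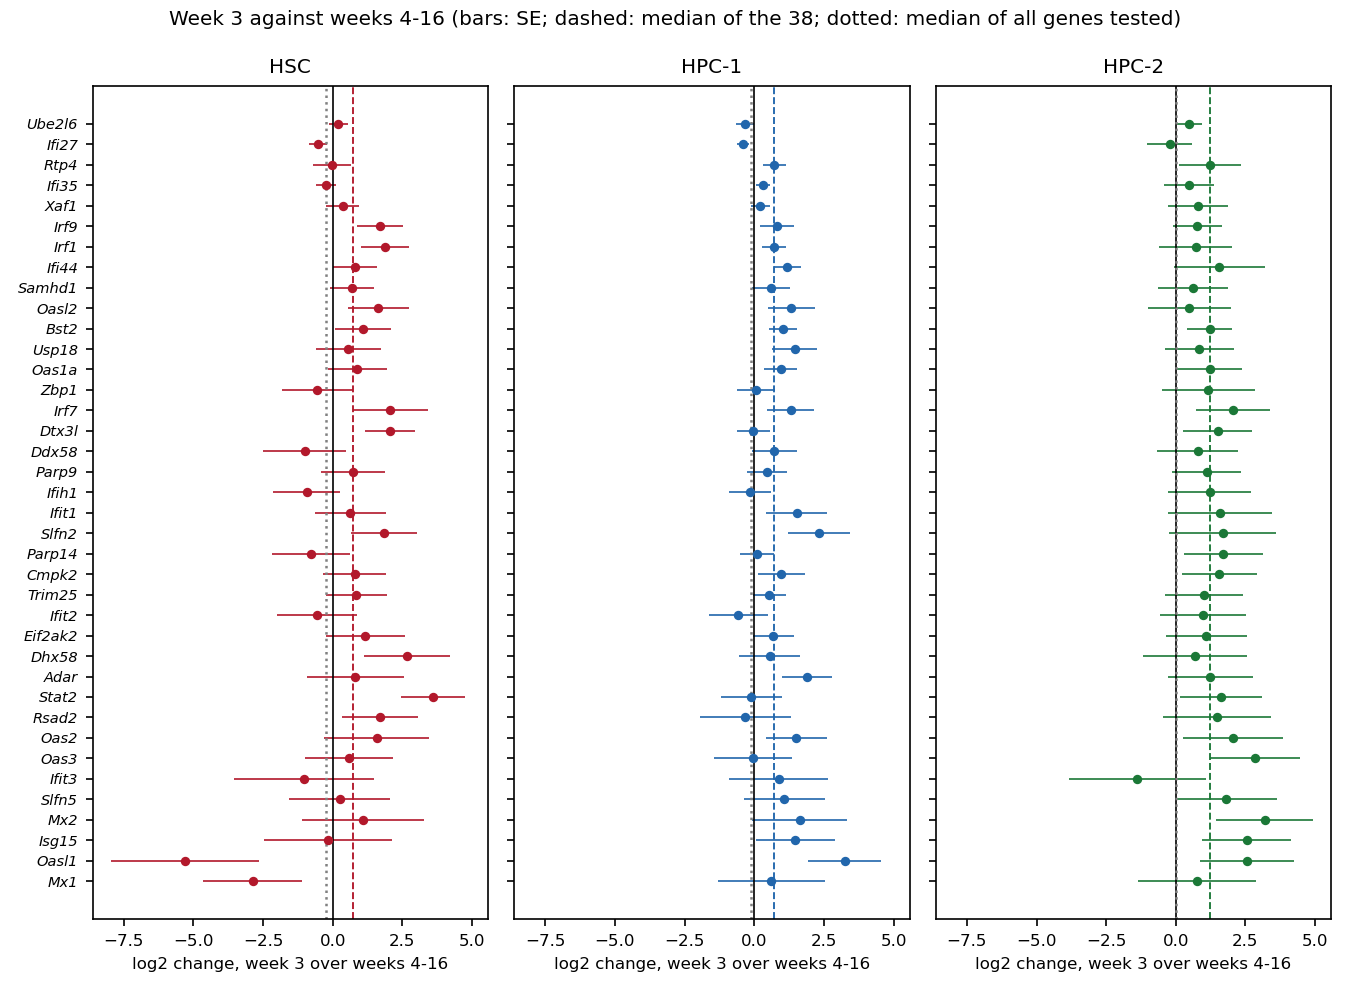
Fitted log2 change, week 3 over weeks 4-16, of each of the 38 genes (rows) in HSC, HPC-1 and HPC-2; bars are SE, the dashed line is the median of the 38 and the dotted line the median of all genes tested. The dashed lines lie at 0.72, 0.71 and 1.21, right of the dotted lines at -0.24, -0.12 and 0.01, and most bars are wide.

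The highest weekly mean fell at week 3 for 18, 17 and 25 of 38 members in HSC, HPC-1 and HPC-2, against 27.5%, 20.2% and 11.6% of all genes. Without the low libraries the counts were 17, 17 and 25 (26.5%, 20.2% and 10.6% of all genes). Without the near-identical pairs they were 18, 19 and 26 (27.5%, 17.9% and 9.14%). Without HPC-2 week 3 replicate 1, HPC-2 had 28 (17.0%). With all libraries, it fell at week 3 in all 3 populations for 5 members, Ifi44, Oas1a, Usp18, Irf7 and Bst2, where 1.99% of all genes did so. The 5 depended on the libraries kept: without the low libraries Usp18 left and Oasl2, Irf1 and Slfn2 joined, without the near-identical pairs Oasl2 and Irf1 joined, and without HPC-2 week 3 replicate 1 Irf1 and Irf9 joined. They were chosen by that pattern, so their values are a description. Irf7 held 58.4, 79.0 and 115 CPM in the HSC libraries of week 3, 55.7, 62.8 and 73.0 in HPC-1, and 55.8, 54.9 and 93.0 in HPC-2. Its medians over the 21 later libraries were 9.72, 21.6 and 10.7 CPM, with highest values of 84.2, 74.0 and 66.8 CPM, so the later ranges reached into those of week 3. Bst2 held 99.2, 77.9 and 104 CPM in HSC, 139, 131 and 100 in HPC-1, and 93.4, 167 and 107 in HPC-2 at week 3. The highest later Bst2 values were 72.3, 98.0 and 111 CPM, so in HSC and HPC-1 every week 3 library lay above every later one.

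Oas1a held 82.7, 18.9 and 144 CPM in HSC at week 3, 93.3, 79.8 and 71.5 in HPC-1, and 55.8, 57.7 and 60.2 in HPC-2. Replicate 2 of HSC was below the later median of 38.2 CPM, while the other 8 libraries were above the medians of their populations. Usp18, the protease that removes ISG15 and dampens receptor signalling, had 44.6, 87.5 and 58.2 CPM in HSC, 227, 52.3 and 138 in HPC-1, and 88.7, 51.7 and 98.0 in HPC-2. Its later medians were 44.5, 47.0 and 42.1 CPM, below all 9 week 3 values, though single later libraries reached 113, 131 and 178 CPM. Ifi44 had 92.6, 159 and 179 CPM in HSC, 127, 97.3 and 102 in HPC-1, and 86.9, 47.2 and 49.3 in HPC-2. All 9 values lay above the later medians of 74.2, 39.1 and 13.6 CPM.

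**Figure D5:**
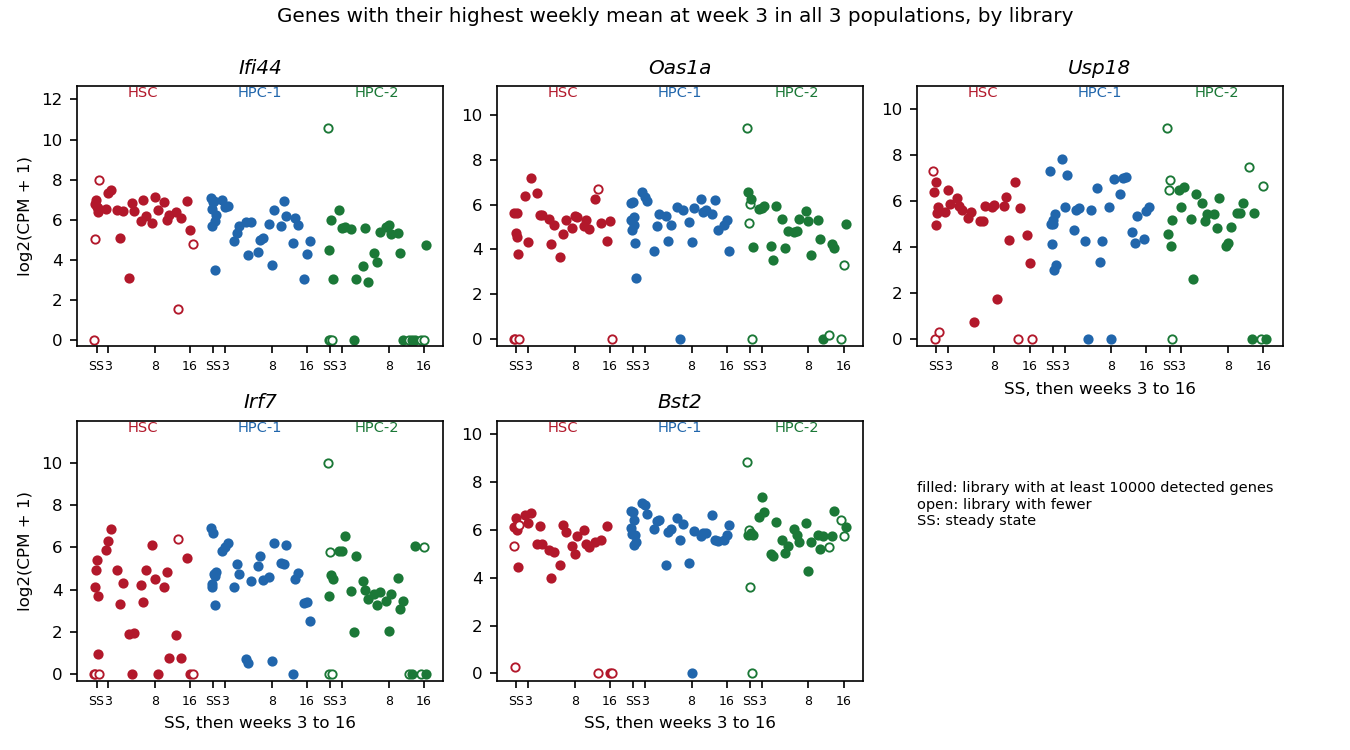
log2(CPM + 1) in every library for Ifi44, Oas1a, Usp18, Irf7 and Bst2, by population and time (SS, steady state, then weeks 3 to 16); open circles are libraries with fewer than 10000 detected genes. Week 3 libraries lie mostly toward the upper edge of the libraries after transplant, with later libraries among them in most panels. Oas1a in HSC week 3 replicate 2 lies below the later median. HPC-2 steady state replicate 1 lies far above week 3 for Ifi44 (1537 CPM) and Irf7 (1030 CPM).

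Among the signalling and transcription factors of the set, Irf9, the DNA-binding subunit of ISGF3, had 186, 215 and 171 CPM in HSC at week 3, above a later maximum of 142 CPM. Its log2 difference was 1.70. Stat2, its partner in ISGF3, averaged 67.1 CPM at week 3 of HSC and 5.13 CPM over the later weeks, a difference of 3.6 ± 1.16 with an adjusted p of 0.133, but the 3 libraries ranged from 6.56 to 105 CPM. Without the low libraries the adjusted p of Stat2 by edgeR was 0.0403, where 4.99% of all genes were called. Irf1, a transcription factor also induced by interferon gamma, averaged 190.5 and 46.1 CPM, and Irf7 84.2 and 18.4 CPM. In HPC-1, Stat2 averaged 11.0 and 11.6 CPM, and Irf9 150.2 and 81.6 CPM.

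Of the enzymes, Dtx3l, a ubiquitin ligase that acts with PARP9, averaged 109 CPM at week 3 of HSC and 23.4 CPM later, with its 3 week 3 libraries, from 72.0 CPM, above the later maximum of 59.5 CPM. Oasl2, an oligoadenylate synthetase-like gene, held 122, 132 and 157 CPM in HSC, above a later maximum of 112, and 162, 139.8 and 122 CPM in HPC-1, where a later library reached 152. Members with all week 3 libraries above all later ones were thus Oasl2, Irf9, Bst2 and Dtx3l in HSC, where 1.73% of all genes did so, Bst2 alone in HPC-1 (0.212%; with Oasl2 and Irf7 also, 3 members and 0.306% of genes, without the near-identical pairs), and Oas3 alone in HPC-2 (0.12%). Oas3, the large RNA-length-sensing synthetase, ran from 11.9 to 38.0 CPM there, with a later maximum of 11.3 CPM. It was still the only such member in HPC-2 without HPC-2 week 3 replicate 1, where 0.53% of all genes had no overlap.

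In HPC-1 the members with an unadjusted p under 0.05 at week 3 included Oasl1, with means of 25.8 and 2.59 CPM (log2 difference 3.24), Ifi44 (1.19), Adar, the RNA-editing deaminase (30.2 and 7.78 CPM, 1.88), and Bst2 (1.04), all with an adjusted p of 0.593. In HPC-2 the differences of Mx2, Oas3, Isg15 and Irf7 were 3.19, 2.85, 2.55 and 2.05, each with an adjusted p of 1. Not every member followed: Ifi27 averaged 240.1, 342 and 223 CPM at week 3 and 312, 419 and 254 CPM later, and Oasl1 was at 0 in all 3 week 3 libraries of HSC.

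Depth, cell markers and detection moved with week 3 to different degrees, and their part in its values was not tested. Genes detected per library numbered 10741 to 11980 in week 3 HSC, below a later median of 13146, 11971 to 15074 in HPC-1, against 13118, and 13212 to 14985 in HPC-2, against 12765. T cell markers (5 genes) summed to at most 6.35 CPM at week 3, with all 5 at 0 in HSC, and 4 NK cell markers to at most 27.6 CPM, with all at 0 in HPC-2. Of the markers listed for plasmacytoid dendritic cells, the main producers of type I interferon, only Siglech is given here. Siglech was at 0 in week 3 HSC and HPC-2. Its HPC-1 level and the other listed markers (Ccr9, Ly6d, Tcf4 and Cox6a2) are not given, so the list as a whole is not described. The 6 monocyte and macrophage markers summed to 0 to 105 CPM in HSC, 26.1 to 256 in HPC-1 and 22.1 to 272 in HPC-2 at week 3, within the later ranges. Neutrophil granule genes (5) summed from 2.40 to 6958 CPM among the 3 HSC libraries of week 3. In those libraries the members' sum ran from 3144 to 3239 CPM, and the members' mean log2 level from 4.362 to 5.035. Whether the neutrophil genes had a part in either measure was not tested. The progenitor sum in HSC was 629 to 749 CPM at week 3, against a steady state range of 49.6 to 466 and a later median of 795.

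The other genes of the pathway were read from lists of ligands, receptors and kinases, inducers, inhibitors and further interferon-induced genes. RNA of the 21 interferon genes themselves was nearly absent: none had a count in any week 3 library of HSC or HPC-1, and 1 had in HPC-2, at up to 2.44 CPM. Of the receptor chains, Ifnar1 averaged 29.8 ± 19.9, 21.8 ± 10.3 and 21.2 ± 11.1 CPM at week 3 in HSC, HPC-1 and HPC-2 (n = 3 each), and 16.3, 25.9 and 9.62 CPM later. Ifnar2 averaged 56.3 ± 13.1, 172 ± 11.2 and 63.6 ± 21.8 CPM, and 65.4, 122 and 63.7 CPM later. None of these lists had a called gene at week 3 against weeks 4-16. Positive differences numbered 8, 7 and 6 of 10 receptor and kinase genes, 8 of 11, 6 of 12 and 5 of 11 inducers, 5, 7 and 5 of 7 inhibitors, and 20 of 34, 23 of 35 and 21 of 34 further induced genes, whose medians were 0.23, 0.48 and 0.21.

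Between populations after transplant, several of these genes were called, where 8.89% of all genes were for HSC against HPC-1, 7.06% for HSC against HPC-2 and 7.7% for HPC-1 against HPC-2. HSC had less RNA than HPC-1 of Ifngr1, an interferon gamma receptor chain (log2 difference -0.81, adjusted p 0.0344), of Il10rb (-1.46, 0.0203), of the endosomal RNA sensor Tlr7 (-7.93, 9.86e-05), of Irf8 (-3.82, 0.0066) and of Tmem173, which encodes the DNA-sensing adaptor STING (-2.42, 0.0157). Tmem173 averaged 34.5 ± 34.0, 180.2 ± 73.5 and 11.9 ± 30.2 CPM in HSC, HPC-1 and HPC-2 (n = 24 each), and the difference between HPC-1 and HPC-2 was 4.81 (adjusted p 2.12e-05). In all, 2 of 10 receptor and kinase genes, 3 of 12 inducers and 1 of 7 inhibitors were lower in HSC than in HPC-1, and none was higher. Of 36 further induced genes, 3 were higher and 3 lower in HSC than in HPC-1, 5 higher and 1 lower than in HPC-2, and 6 higher and 1 lower in HPC-1 than in HPC-2. Ifitm3, which blocks viral entry, was higher in HSC than in HPC-1 (1.01, 7.63e-05) and HPC-2 (0.74, 0.00658), and Ifitm1 averaged 1196 ± 708 CPM in HSC against 458 ± 219 and 268 ± 192. Ly6a, which encodes the sort marker SCA-1, is itself interferon-inducible and was higher in HSC than in HPC-2 (1.35, 0.0198).

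Correlations among the members across libraries were mostly positive and weak. Over all 95 libraries, the 435 pairs among the 30 members with a mean of at least 10 CPM had a median correlation of log2(CPM + 1) of 0.25, with 402 pairs above 0, and of 0.18 over the 83 libraries with at least 10000 detected genes, with 358 above 0. Pairs of other genes were not examined. The libraries differ in depth and detection, and the members' mean log2 level correlated with the number of detected genes at 0.72 (n = 95) and 0.55 (n = 83). Oasl2 and Usp18 were among the closest pairs, at 0.74 over 95 libraries and 0.64 over 83, and within the deeper libraries at 0.20 in HSC (n = 27), 0.79 in HPC-1 (n = 32) and 0.80 in HPC-2 (n = 24). In HPC-2, Irf7 had 0.86 with Usp18 and 0.83 with Oasl2. Irf9 and Bst2 had 0.57 over the 83, and 0.76, 0.32 and 0.69 by population. By contrast, Ifi27 and Rtp4, which were both highest in HPC-1, had 0.45 over the 83 but 0.04 in HSC and -0.02 in HPC-1, and 0.57 in HPC-2. All these are descriptions across libraries that differ in population and time.

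One library stood out. HPC-2 steady state replicate 1, with the fewest detected genes of the series (3827), had 19 members at 0, while others stood at their highest level in the series: Ifi44 at 1537 CPM, Oasl2 at 1109, Irf7 at 1030, Ube2l6 at 1013, Samhd1 at 891, Irf9 at 815 and Parp14 at 809.7 CPM. Its members summed to 10740 CPM, where the group's median was 1763, and the mean of Ifi44 in that group, 232 ± 576 CPM (SD, n = 7), rests on it.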

How the data were processed

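RNA of sorted cells was made into cDNA with SMART-Seq v4 and into libraries with Nextera XT, per the labels' protocols. Trimmomatic 0.36, HISAT2 2.0.5, Picard and featureCounts are named in the submitters' processing notes, with build GRCm38 (mm10); the strand setting and annotation release are not given in the sources used here. The authors deposited 1 table of raw read counts per gene for 95 libraries, and depth was the total count per library. The members and all gene lists were chosen with earlier results of these data known. The genes named with values were the members that passed a test (at most 8 per comparison, by smallest p), the 6 with the highest mean CPM, and the 2 with the smallest p where none passed; others, such as those of week 3, were chosen after their values were seen.

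Counts were tested in R 4.3.3 with edgeR 4.0.16 (TMM scaling, filterByExpr, trended dispersions, robust quasi-likelihood test), with Benjamini-Hochberg adjustment over all genes tested. Within a population, only its libraries entered the fit; populations were compared in 1 fit of all 95 libraries. The SE was the log2 change divided by the square root of F. Alternatives were RLE scaling, no filter on low counts, DESeq2 1.42.0, limma 3.58.1 voom with sample weights, blocks on the replicate number and on the numbering in the sample descriptions, 1 mean per week, leaving out libraries with fewer than 10000 detected genes or the near-identical pairs, another set of libraries in the fit, and leaving out each library in turn; the week 3 contrasts, the counts without HPC-2 week 3 replicate 1 and those against the steady state libraries of 1 numbering block were added after the data had been seen. Levels are CPM or log2(CPM + 1), with a pseudocount of 1, and intervals on ratios of pooled counts are exact at 95% and cover counting error only. The pipeline was tested on simulated counts for HPC-1 weeks 3-4 against steady state, HSC against HPC-1 after transplant and HSC week 3 against weeks 4-16. Every call had the right sign, but 5, 25 and 2 genes without a change were called, in the second comparison above the nominal rate. Which genes these were was not recorded. Recovery was partial: at a true log2 change of -2, 7 of 47, 16 of 48 and 0 of 49 genes were called. Same-numbered libraries had low median correlations (0.0024 to 0.0476), so the numbers were not treated as pairs. Between populations, though, 8 of 32, 7 of 31 and 10 of 31 pairs exceeded 0.1, and the highest reached 0.611. After transplant, such pairs have neighbouring description numbers. At steady state, all but the first HPC-2 replicate were matched to libraries of another numbering block, so the check is weak there. Shared material is not excluded.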

Additional observations from a re-analysis of the deposited data

Results flagged for a closer look

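In groups of 4 to 10 libraries, 84 combinations of a measure and a group were looked at, and in 7 of them 1 library lay far from the others by Dixon's criterion. Chance flags about 1 in 20 groups. The members' mean log2(CPM + 1) was 1.10 in HPC-2 steady state replicate 6, where the next library had 2.84, and 3.5 in HPC-2 week 8 replicate 2, where the next had 3.87. Ube2l6 was at 689 CPM in HPC-1 week 5 replicate 1, against 369 CPM in the nearest library. Rtp4 was at 481 CPM in HPC-1 week 10 replicate 1, against 272 CPM. Ifi35 was at 115 CPM in HSC week 3 replicate 3, against 176 CPM, and at 415 CPM in HSC week 13 replicate 2, against 241 CPM. Irf9 was at 815 CPM in HPC-2 steady state replicate 1, against 88.6 CPM.

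The change from steady state differed between HSC and HPC-2 by an interaction term for Mx1, at -11.83 on the log2 scale at weeks 3-4 and -11.77 at weeks 5-8, and for Ifit3, at -10.96 at weeks 5-8. Both genes were at 0 in most libraries.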

How the results depend on the processing

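The number of members called is given here as reported and then under the alternatives that moved it by more than 1.5 times; the cause of these moves was not tested. Within populations, weeks 3-4 of HSC went from 0 to 2 with voom. Weeks 3-4 of HPC-1 went from 1 to 0 without the filter on low counts, with DESeq2 (which gave Slfn2 no adjusted p), with the replicate block, with the block on description numbers, with 1 mean per week, without the near-identical libraries and with all libraries in the fit, and ran from 0 to 1 when single libraries were left out. HPC-1 at weeks 5-8 went from 0 to 2 and at weeks 10-16 from 0 to 1 with DESeq2. In HPC-2, the description block gave 2 in place of 0 at weeks 3-4 and between weeks 10-16 and 3-4, but this fit called 2066 and 1953 of 11885 genes and shifted the median of all genes to 9.11 and -9.2 (log2), so 2 of 35 members was a smaller share than that of all genes. Also in HPC-2, weeks 10-16 went from 0 to 1 without near-identical libraries and to 3 with all libraries fitted.

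HSC against HPC-1 went from 1 at steady state to 3 with voom, 2 without low libraries and 2 when only the groups compared were fitted, and from 2 after transplant to 10, 5 and 4 under the same changes. HSC against HPC-2 at steady state went from 1 to 2 with RLE scaling, 0 without the filter, 7 with DESeq2, 3 with voom, 0 with the replicate block, 2 with the description block, 0 without low libraries, 7 without near-identical libraries and 0 with only those groups, and from 0 to 6 over single libraries left out. After transplant it went from 2 to 1 without the filter, 5 with voom, 1 with the replicate block, 4 without low libraries, 1 without near-identical libraries and 1 with only those groups, and from 1 to 3 over single libraries. HPC-1 against HPC-2 at steady state went from 1 to 0 without the filter, 4 with DESeq2, 0 with the replicate block, 2 with the description block, 0 without low libraries, 9 without near-identical libraries and 3 with only those groups, and from 0 to 7 over single libraries. After transplant it went from 3 to 0 without the filter, 6 with voom, 0 with the replicate block, 1 with 1 mean per week, 5 without low libraries and 1 with only those groups, and from 0 to 3 over single libraries.

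For the difference in change between HSC and HPC-1, DESeq2 gave 1, 2 and 1 in place of 0 at weeks 3-4, 5-8 and 10-16, and voom gave 1 and 1 in the first 2 periods. Between HSC and HPC-2, weeks 3-4 went from 1 to 2 with DESeq2, 3 with voom, 0 with the replicate block, the description block, without low libraries and with only those groups, and 3 without near-identical libraries (0 to 2 over single libraries). Weeks 5-8 went from 2 to 0 with either block, with 1 mean per week and without low libraries, and to 1 with only those groups (1 to 3 over single libraries). Weeks 10-16 went from 0 to 3 with DESeq2, 2 with 1 mean per week and 2 without near-identical libraries (0 to 2).

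At week 3 against weeks 4-16, HSC went from 0 to 6 with voom, 2 with the description block and 1, Stat2, without low libraries, HPC-1 to 1 with voom, and HPC-2 to 7 with voom and 1 with the description block. The description block called 284 genes in all there in HSC and 1878 in HPC-2, with a median of all genes of 1.19 and 7.75. Against steady state, HSC went from 0 to 2 with the description block, HPC-1 from 1 to 0 with DESeq2 and with either block and to 5 with voom (0 to 1 over single libraries), and HPC-2 from 0 to 4 with voom, 1 with the description block and 1 without near-identical libraries. For these added contrasts, 1 mean per week and another set of libraries were not run. Same-numbered libraries are not known to share an animal or a day, so the replicate block has no stated basis. Between populations at steady state, it also joined all but the first HPC-2 replicate with libraries of another numbering block.

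Over all genes, counts of calls also moved: HSC against HPC-2 at steady state from 1230 to between 29 (without low libraries) and 2935 (without near-identical libraries), HPC-1 against HPC-2 from 84 to between 4 and 2807 under the same changes, and the 3 differences between HSC and HPC-2 from 441, 369 and 458 to 0 with the replicate block. RLE scaling shifted the median of all genes by up to 0.51 (log2), and by 0.44 in HSC at week 3 against later weeks. With it, the split of calls at steady state went from 51 higher and 33 lower to 128 and 168 for HPC-1 against HPC-2, and after transplant from 634 and 405 to 609 and 601 for HSC against HPC-2. Members at 0 in many libraries were not detectable there at this depth.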
